A study of Mus musculus with 12 samples.

Results

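The genes described here are 10 transcription factors known for their part in the making of fat cells. They were taken by symbol from a list that was chosen with earlier results of these data known. They are *Cebpa*, *Cebpb* and *Cebpd* of the C/EBP family, *Klf4*, *Klf5* and *Klf15* of the Krüppel-like family, and *Zfp423*, *Ebf1*, *Ebf2* and *Prdm16*, which act in commitment to the fat lineage or in brown fat. All 10 were among the 46983 genes of the deposited table, and 9 had a value above 0 in at least 1 library. Of these, 8 reached 0.1 FPKM in at least 3 of the 12 libraries and entered the tests. FPKM is the number of sequenced fragments on a gene, scaled to the length of its transcript and to the mapped fragments of the library.

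The cells were C2C12, a mouse myoblast line that leaves the cell cycle and fuses into myotubes when it differentiates. The WT cells carried the empty PiggyBac vector PB-IP, and the labels call their genotype wild type. In the PPARγ/+ cells the same vector held the coding sequence of PPARγ, a nuclear receptor that drives fat cell differentiation, and these cells were selected with puromycin. RNA of each cell type was sequenced on 0d and on 5d of differentiation, which gives 4 groups of 3 libraries. The sources used here do not say whether the PPARγ/+ cells were 1 clone or a pool, and the medium described for all cells held serum and LIF, with no change to a low-serum medium named. The design text calls the cells inducible, but no inducing agent is named.

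In fat cell precursors these factors act in sequence. C/EBPβ and C/EBPδ appear early after a hormonal stimulus, with KLF4 and KLF5 beside them, and they switch on PPARγ and C/EBPα, which then maintain each other and the genes of the mature fat cell. KLF15 is a later activator that also governs glucose and amino acid use in muscle. ZFP423 and EBF1 mark committed precursors, while EBF2 and PRDM16 direct the brown fat programme, and PRDM16 is known for switching muscle precursors to brown fat. C2C12 myoblasts are a common host for tests of these factors, because forced PPARγ or C/EBP can turn muscle precursors toward fat.

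The vector gene followed the labels: *Pparg* lay between 3.12 and 7.56 FPKM in the 6 WT libraries and between 28.0 and 92.7 FPKM in the 6 PPARγ/+ libraries. Its log2 difference between the cell types was 2.57 on 0d (adjusted p = 0.00148) and 3.85 on 5d (adjusted p = 1.73e-04). The mapped fragments fitted from the values ranged from 18581299 to 26073152 per library. All 8 muscle markers were detected in every group, and their summed level in WT cells was 135 to 307 FPKM on 0d and 962 to 4236 FPKM on 5d. In PPARγ/+ cells that sum was 61.9 to 97.6 FPKM on 0d and 1038 to 1223 FPKM on 5d. A pair of libraries stood apart. WT 5d replicate 3 had the lowest summed muscle markers of its group, 962 FPKM, and the lowest level of each of the 8 but *Myf5*, with *Myh3*, embryonic myosin, at 87.9 FPKM against 527 and 307 FPKM. PPARγ/+ 5d replicate 3 had the highest *Pparg*, 92.7 FPKM against 40.1 and 44.1 FPKM. Member results that move without them are also given without them, as are some of the list counts that move. In such bulk RNA, more cells that express a gene and more RNA per cell cannot be told apart.

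The start regions of 4 members are shown. In PPARγ/+ cells the libraries of 0d and 5d did not overlap for *Cebpa*, *Klf15* and *Ebf1*, and overlapped for *Cebpb*, the paralog of *Cebpa*. Such a lack of overlap is common and not particular to these genes. It held for 58.1% of all genes tested, for *Cebpd* and *Zfp423* too, and for *Klf15* also in WT cells. Each sequence is taken from RefSeq on GRCm38.p6, on the plus strand, and runs 5′ to 3′ from 250 bases before to 50 bases after an annotated start. The RefSeq table matched 7 of the 10 members, at 9 start sites. Capitals mark the TATA box TATAAA and the C/EBP core TTGCG in *Cebpa* and *Ebf1*, TATAAA and the cAMP-response core TGACG in *Cebpb*, and the E-box CACGTG and the CCAAT box CCAAT in *Klf15*, each searched on both strands.
Cebpa, chr7:35119043-35119342: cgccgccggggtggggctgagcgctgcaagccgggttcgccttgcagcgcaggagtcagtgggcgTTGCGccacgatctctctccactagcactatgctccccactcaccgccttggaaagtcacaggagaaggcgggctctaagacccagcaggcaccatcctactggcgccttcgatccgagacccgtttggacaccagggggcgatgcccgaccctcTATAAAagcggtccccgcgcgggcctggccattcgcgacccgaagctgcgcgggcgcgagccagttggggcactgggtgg
Cebpb, chr2:167688665-167688964: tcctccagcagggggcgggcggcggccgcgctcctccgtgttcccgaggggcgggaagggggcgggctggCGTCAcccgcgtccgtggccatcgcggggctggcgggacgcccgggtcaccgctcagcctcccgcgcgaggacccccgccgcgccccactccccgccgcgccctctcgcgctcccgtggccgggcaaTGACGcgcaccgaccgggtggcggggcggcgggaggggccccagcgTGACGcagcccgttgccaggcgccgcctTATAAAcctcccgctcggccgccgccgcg
Klf15, chr6:90462326-90462625: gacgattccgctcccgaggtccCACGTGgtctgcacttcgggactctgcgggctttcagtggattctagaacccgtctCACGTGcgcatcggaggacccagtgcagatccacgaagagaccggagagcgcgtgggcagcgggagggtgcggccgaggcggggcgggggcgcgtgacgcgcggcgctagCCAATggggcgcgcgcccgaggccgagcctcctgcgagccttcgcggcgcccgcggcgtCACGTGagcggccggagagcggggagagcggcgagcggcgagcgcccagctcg
Ebf1, second start, chr11:44619978-44620277: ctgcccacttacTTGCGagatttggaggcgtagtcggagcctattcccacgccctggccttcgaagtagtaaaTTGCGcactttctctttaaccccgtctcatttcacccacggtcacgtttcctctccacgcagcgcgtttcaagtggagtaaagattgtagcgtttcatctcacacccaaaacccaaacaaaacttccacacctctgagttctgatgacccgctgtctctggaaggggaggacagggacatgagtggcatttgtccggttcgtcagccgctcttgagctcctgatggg

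The *Cebpa* window held a TATAAA 30 bases before the start and 1 TTGCG. *Cebpb* held TATAAA only inside the transcript, from base 22, and 3 matches to TGACG with no TTGCG. *Klf15* had no TATAAA but 3 matches to CACGTG, 1 to CCAAT and 2 to TGACG, of which 1 overlaps a CACGTG. The second start of *Ebf1* had 2 matches to TTGCG and 1 to TGACG. These letters are common: of 32851 promoter windows of the same length, 13.6% hold TATAAA, 17.4% TTGCG, 20.8% TGACG, 37.4% CCAAT and 7.15% CACGTG. The GC box GGGCGG was found in 35.7% of windows, 5 times in *Cebpb*, with 2 of them overlapping, and 1 time in *Klf15*. The nuclear receptor core AGGTCA was in 16.3% of windows and in none of these 4. The first start of *Ebf1* held none of the 7 motifs. GC content was 67.3% for *Cebpa*, 80.7% for *Cebpb*, 73.3% for *Klf15* and 53.0% for the second *Ebf1* start, against a median of 52.7% over all windows. A match to such short letters is a description and shows no binding.

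Over the 5 days every member that was called went up, in both cell types. Values of p are from limma on log2(FPKM + 0.1), and differences are on that log2 scale, which understates the change of low genes. Between days a member was called at an unadjusted p of at most 0.05 and a change of at least 2-fold, as the study did. In WT cells 2 of the 8 tested members were called, *Cebpd* and *Klf15*, both higher, beside 16.5% of all 18023 genes tested (8.94% higher). In PPARγ/+ cells 3 were called, *Cebpd*, *Klf15* and *Ebf1*, all higher, beside 15.2% of all genes (9.11% higher). The libraries of both days did not overlap for 3 members in WT cells, beside 51.1% of all genes, and for 5 in PPARγ/+ cells, beside 58.1%. In WT cells the median log2 difference of the 8 members was 0.30, against -0.08 over all genes, and in PPARγ/+ cells it was 0.88, against -0.10.

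Between the cell types a call needed an adjusted p of at most 0.05 and 2-fold. On 0d limma called no member, beside 1.96% of all genes. *Klf4* and *Klf5* had an unadjusted p of at most 0.05 but were under 2-fold. The libraries of 5 members did not overlap, beside 26.8% of all genes. On 5d 1 member was called, *Ebf1*, higher in PPARγ/+ cells, beside 1.1% of all genes (0.571% higher), and the libraries of 4 members did not overlap, beside 18.5% of all genes. The median log2 difference of the members was 0.15 on 0d and 0.41 on 5d, against 0.02 over all genes on both days. The test of whether the change over days differed between cell types, the interaction, called no member at an adjusted p of at most 0.05, beside 0.76% of all genes. At an unadjusted p of at most 0.05 it gave 3 of them, *Ebf1*, *Zfp423* and *Klf4*, beside 2164 of the 18023 genes tested. A call in one cell type alone therefore does not show that the other differed.

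**Figure D1:**
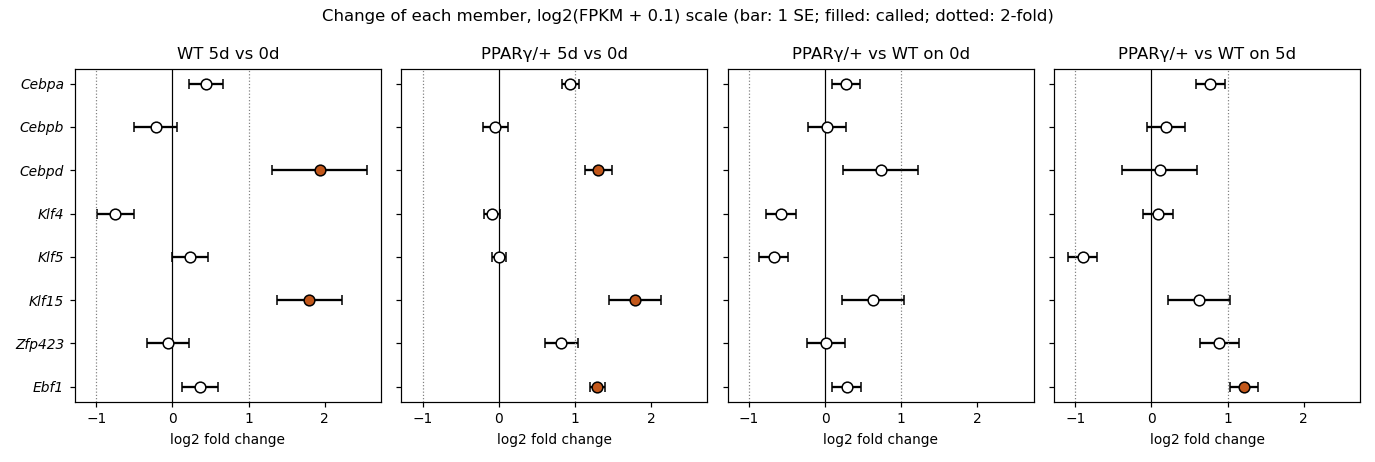
Log2 fold change of the 8 tested members (y axis) in 4 comparisons (panels), as points with bars of 1 SE, on the log2(FPKM + 0.1) scale; filled points passed the call of that comparison and dotted lines mark 2-fold. Filled points stand for Cebpd and Klf15 in both day comparisons, and for Ebf1 in PPARγ/+ cells over days and against WT cells on 5d.

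*Cebpa* encodes C/EBPα, the partner of PPARγ in the mature fat cell. It lies at chr7:35119293-35121928 (plus strand, 1 exon). Its level was 8.996, 9.14 and 6.47 FPKM in WT cells on 0d and 8.36, 11.5 and 14.0 FPKM on 5d. In PPARγ/+ cells it was 9.30, 10.1 and 10.2 FPKM on 0d and 17.2, 17.6 and 22.6 FPKM on 5d. Every PPARγ/+ library of 5d therefore lay above all 9 others. The log2 difference between days in PPARγ/+ cells was 0.94 ± 0.11 (SE, adjusted p = 6.61e-04), or 1.92-fold, just short of the 2-fold needed for a call. In WT cells it was 0.44 ± 0.22 (adjusted p = 0.168). Against WT cells on 5d *Cebpa* differed by 0.78 ± 0.19 (adjusted p = 0.0671). That difference was 0.95 (adjusted p = 0.00887) without WT 5d replicate 3, 0.58 (adjusted p = 0.209) without WT 5d replicate 1 and 0.65 (adjusted p = 0.248) without PPARγ/+ 5d replicate 3, under 2-fold each time.

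*Cebpb* encodes C/EBPβ, an early activator of *Pparg* and *Cebpa*. Its gene at chr2:167688915-167690418 (plus strand, 1 exon) gave 10.97, 9.44 and 8.07 FPKM in WT cells on 0d and 5.27, 8.58 and 11.6 FPKM on 5d. PPARγ/+ cells had 8.01, 12.4 and 8.77 FPKM on 0d and 8.46, 9.12 and 10.3 FPKM on 5d. All 4 groups overlapped, and the log2 differences lay between -0.22 and 0.20 with SE of 0.17 to 0.28. Its direction is not fixed, since it turned with the scaling or with 1 library in 4 comparisons and the interaction.

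*Cebpd* encodes C/EBPδ, which responds quickly to glucocorticoid and inflammatory signals. Its gene lies at chr16:15887286-15891031 (plus strand, 1 exon in the annotation used here). In WT cells it was at 2.45, 3.33 and 2.82 FPKM on 0d and at 4.96, 8.87 and 31.1 FPKM on 5d. In PPARγ/+ cells it was at 4.17, 5.36 and 4.89 FPKM on 0d and at 9.48, 11.9 and 15.2 FPKM on 5d. Within each cell type the days did not overlap. The log2 rise was 1.93 ± 0.62 in WT cells (adjusted p = 0.0523), or 3.82-fold, which passed the unadjusted threshold, and 1.31 ± 0.18 in PPARγ/+ cells (adjusted p = 0.00126), or 2.48-fold. WT 5d replicate 3 set much of the size in WT cells: without it the rise was 1.20 (adjusted p = 0.0250). The WT call was lost without WT 0d replicate 1 (1.83, adjusted p = 0.149) or WT 0d replicate 3 (1.93, adjusted p = 0.136), where the unadjusted p was over 0.05 as well. On 0d the PPARγ/+ libraries all lay above the WT libraries, by 0.73 ± 0.49 (adjusted p = 0.435), and on 5d the cell types overlapped.

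The makeup of the C/EBP group differed between the days, given here as a description with no test. In each WT library of 0d *Cebpa* stood below *Cebpb*, with ratios of 0.802 to 0.969, and in every WT library of 5d it stood above, with 1.21 to 1.58. PPARγ/+ cells spanned 0.818 to 1.16 on 0d and 1.93 to 2.20 on 5d, the highest ratios of the 4 groups. The ratio is free of the scaling of libraries, and its means were 0.864 ± 0.092, 1.38 ± 0.19, 1.05 ± 0.20 and 2.05 ± 0.13 (SD, n = 3) in WT 0d, WT 5d, PPARγ/+ 0d and PPARγ/+ 5d. *Cebpd* relative to *Cebpb* was 0.308 ± 0.074 on 0d and 1.55 ± 0.98 on 5d for WT cells, and 0.504 ± 0.064 and 1.30 ± 0.18 for PPARγ/+ cells. The summed level of all 3 was 17.4 to 22.4 FPKM in WT cells on 0d and 18.6, 29.0 and 56.7 FPKM on 5d, and 21.5 to 27.8 FPKM and 35.2 to 48.1 FPKM in PPARγ/+ cells. The *Cebpd* values fit a length of 1180 bases, where the annotation used here gives 3746 bases. Its standing against *Cebpb* and the summed level depend on that length, while the relative shift of its ratio between groups does not.

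**Figure D2:**
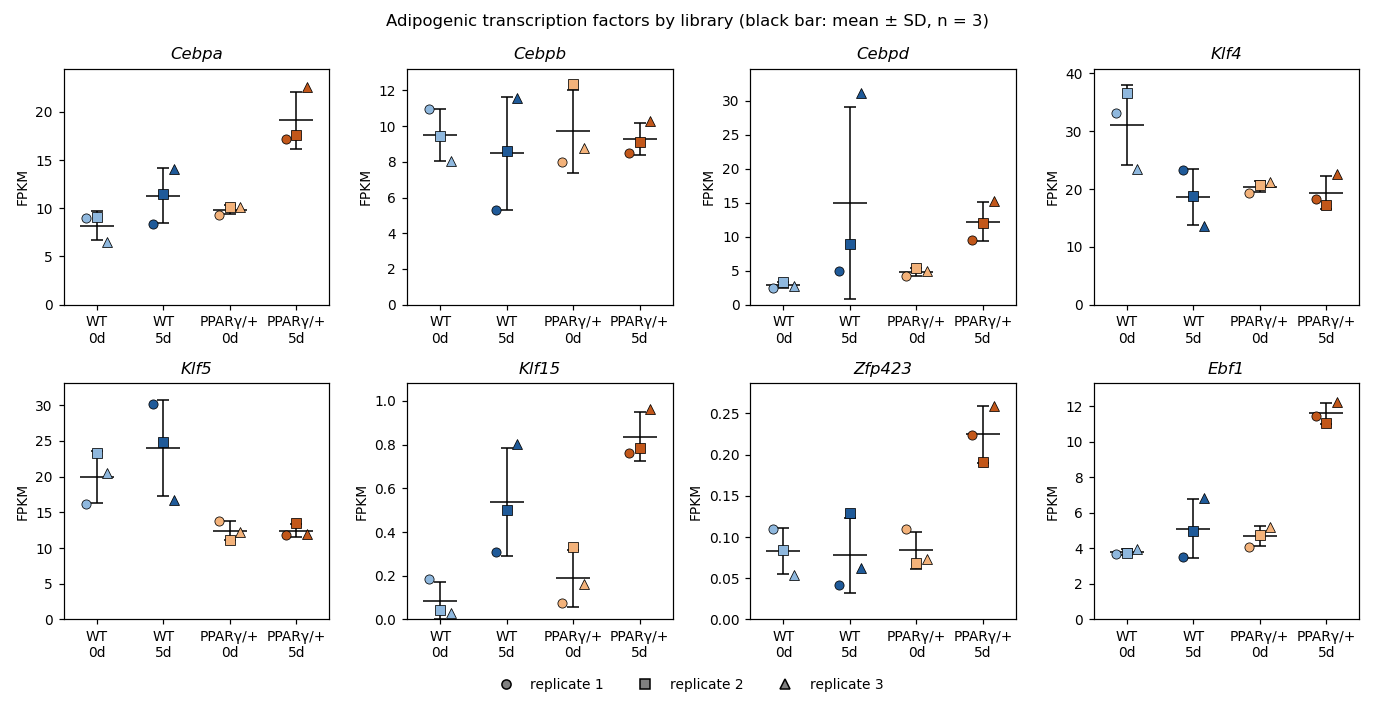
FPKM (y axis, from 0) of the 8 tested members in the 12 libraries, by group (x axis), with a symbol for each replicate and black bars for the mean ± SD (n = 3). Cebpa, Ebf1 and Zfp423 stand highest in the PPARγ/+ libraries of 5d, Klf5 is lower in every PPARγ/+ library than in every WT library, and 1 WT library of 5d reaches 31.1 FPKM of Cebpd.

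*Klf4*, which encodes a factor also used to reprogram cells and acts upstream of *Cebpb* in fat cell precursors, lies at chr4:55527143-55532466 (minus strand). It was the most abundant member on 0d in both cell types. WT cells had 33.1, 36.7 and 23.5 FPKM on 0d and 23.3, 18.8 and 13.6 FPKM on 5d. PPARγ/+ cells had 19.3, 20.7 and 21.2 FPKM on 0d and 18.3, 17.3 and 22.6 FPKM on 5d. The WT libraries of the 2 days did not overlap, though only by the gap between 23.3 and 23.5 FPKM, and the log2 difference of -0.75 ± 0.24 (adjusted p = 0.0513) was short of 2-fold. Without WT 5d replicate 3 it was -0.54 (adjusted p = 0.109). On 0d *Klf4* was at a lower level in all PPARγ/+ libraries than in all WT libraries, by -0.58 ± 0.20 on the log2 scale (adjusted p = 0.118). The interaction was 0.67 ± 0.28 (adjusted p = 0.374).

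*Klf5*, an activator of *Pparg* downstream of C/EBPβ and C/EBPδ, lies at chr14:99298691-99315036 (plus strand). The WT libraries had 16.1, 23.4 and 20.5 FPKM on 0d and 30.2, 24.9 and 16.8 FPKM on 5d. The PPARγ/+ libraries had 13.8, 11.2 and 12.2 FPKM on 0d and 11.8, 13.5 and 11.9 FPKM on 5d. All 6 PPARγ/+ libraries thus lay below all 6 WT libraries. The log2 difference between cell types was -0.67 ± 0.19 on 0d (adjusted p = 0.0690) and -0.90 ± 0.19 on 5d (adjusted p = 0.0440), or 1.87-fold lower, short of a call. Without WT 5d replicate 3 the difference on 5d was -1.14 (adjusted p = 0.00146) and passed the call. Without WT 5d replicate 1 it was -0.72 (adjusted p = 0.146) and without WT 5d replicate 2 it was -0.86 (adjusted p = 0.156). With any other single library left out the adjusted p lay between 0.0457 and 0.166, and it was under 0.05 for WT 0d replicate 1 only. Over days the PPARγ/+ level differed by 0.00 ± 0.10.

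In the deposited FPKM *Klf5* and *Klf4* changed order in WT cells. The *Klf5* values fit a length of 1721 bases, where the annotation used here gives 5201 bases. Which of the genes stands higher depends on that length, while the relative shift of their ratio between groups does not. *Klf5* stood at 0.666 ± 0.194 of *Klf4* (SD, n = 3) on 0d and at 1.28 ± 0.048 on 5d, whereas the ratio was 0.611 ± 0.093 and 0.653 ± 0.126 in PPARγ/+ cells. The ratios of WT 5d did not overlap those of the other groups.

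*Klf15*, at chr6:90462576-90475238 (plus strand), was a low gene, counted by 2 to 51 recovered fragments a library. In WT cells its level was 0.185, 0.0426 and 0.0310 FPKM on 0d and 0.309, 0.501 and 0.802 FPKM on 5d. In PPARγ/+ cells it was 0.0734, 0.330 and 0.164 FPKM on 0d and 0.760, 0.783 and 0.964 FPKM on 5d. Days did not overlap in either cell type. The log2 rise was 1.79 ± 0.43 in WT cells (adjusted p = 0.0188) and 1.79 ± 0.34 in PPARγ/+ cells (adjusted p = 0.00513), 3.47-fold and 3.45-fold. With the interaction at -0.01 ± 0.57, no difference between the cell types in this rise was detectable at this depth. The size of the rise moved with the pseudocount: with 1 in place of 0.1 the log2 rises were 0.49 in WT and 0.63 in PPARγ/+ cells, under 2-fold, with 0.01 they were 2.77 and 2.30, and on the recovered fragments 2.84 and 2.30.

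*Ebf1* encodes early B cell factor 1, which is active in fat cell precursors and in mature fat cells. Its gene lies at chr11:44617317-45008091 (plus strand, 17 exonic blocks). WT cells had 3.68, 3.77 and 3.98 FPKM on 0d and 3.51, 4.98 and 6.85 FPKM on 5d. PPARγ/+ cells had 4.08, 4.76 and 5.21 FPKM on 0d and 11.5, 11.1 and 12.2 FPKM on 5d. The PPARγ/+ libraries of 5d stood clear of all 9 others. *Ebf1* rose 2.46-fold over days in PPARγ/+ cells (log2 1.30 ± 0.10, adjusted p = 1.29e-04) and was 2.32-fold higher than in WT cells on 5d (log2 1.22 ± 0.19, adjusted p = 0.00932). In WT cells the log2 difference between days was 0.36 ± 0.23 (adjusted p = 0.266). The interaction was 0.93 ± 0.26 (adjusted p = 0.165). Without WT 5d replicate 3 the interaction was 1.16 and passed the call (adjusted p = 0.0124). The 5d call was lost without PPARγ/+ 5d replicate 3 (1.18, adjusted p = 0.0533), without WT 5d replicate 1 (0.98, under 2-fold), and when the 6 libraries of 5d alone set the spread (adjusted p = 0.131).

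*Ebf3*, the other EBF gene at a like level in the deposited FPKM, passed no call with all libraries. Its values fit a length of 5021 bases, where the annotation used here gives 9227 bases. How its level stands against that of *Ebf1* depends on that length. *Ebf3* was at 5.81 ± 0.36 and 4.84 ± 1.17 FPKM in WT cells on 0d and 5d and at 4.83 ± 0.30 and 5.31 ± 0.12 FPKM in PPARγ/+ cells (SD, n = 3). *Ebf1* was 0.656 ± 0.016 of *Ebf3* in WT cells on 0d, 1.04 ± 0.14 on 5d, 0.973 ± 0.141 in PPARγ/+ cells on 0d and 2.19 ± 0.097 on 5d.

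**Figure D3:**
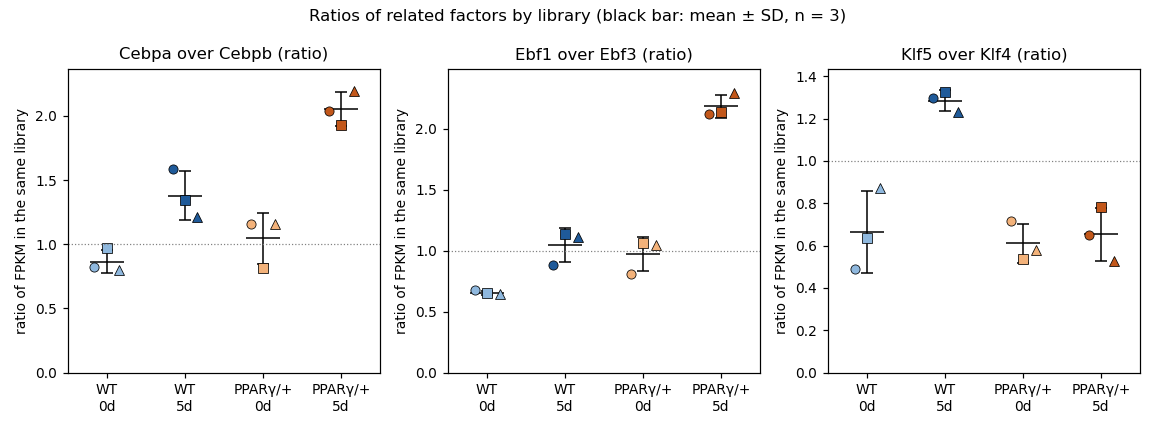
Ratio of the FPKM of 2 related factors in the same library (y axis, from 0) by group (x axis), with a symbol for each replicate, black bars for the mean ± SD (n = 3) and a dotted line at equal levels. Cebpa over Cebpb and Ebf1 over Ebf3 are highest in the PPARγ/+ libraries of 5d, at means of 2.05 and 2.19, and Klf5 over Klf4 exceeds 1 in the 3 WT libraries of 5d. The FPKM of Klf5 and Ebf3 fit lengths other than the annotated ones. Where their ratios stand against the dotted line depends on the length used.

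*Zfp423*, a zinc finger gene that marks committed precursors, lies at chr8:87661810-87959595 (minus strand, 14 exonic blocks). It was counted by 6 to 27 recovered fragments a library. Its level was 0.110, 0.0848 and 0.0539 FPKM in WT cells on 0d, 0.0420, 0.129 and 0.0626 FPKM on 5d, 0.110, 0.0684 and 0.0735 FPKM in PPARγ/+ cells on 0d and 0.224, 0.191 and 0.259 FPKM on 5d. Again the PPARγ/+ libraries of 5d lay above all 9 others. The log2 difference over days in PPARγ/+ cells was 0.82 ± 0.21 (adjusted p = 0.0188), short of 2-fold. With 0.01 added in place of 0.1 it was 1.34 and on the recovered fragments 1.40, and both passed the call. On 5d it differed from WT cells by 0.89 ± 0.25 (adjusted p = 0.118), and on the fragments by 1.66 (adjusted p = 0.0426), also a call.

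*Ebf2* and *Prdm16*, the brown fat factors, were at or under the floor of 3 fragments in every library. *Prdm16*, at chr4:154316125-154636873 (minus strand), was listed at 0 in all 12 libraries, which allows at most 0.0123 to 0.0173 FPKM. *Ebf2*, at chr14:67233292-67430918 (plus strand), had 1 fragment in each of 3 libraries and 0 in the others, with a floor of 0.0166 to 0.0233 FPKM. No fold change is given for either. Floors cover counting error only.

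The members fell into 3 tiers that were alike in the 4 groups. *Klf4*, *Klf5*, *Cebpa*, *Cebpb*, *Cebpd* and *Ebf1* had means of 2.86 to 31.1 FPKM, *Klf15* and *Zfp423* of 0.0780 to 0.836 FPKM, and *Ebf2* and *Prdm16* were at the floor. Within the first tier the order changed. In WT cells on 0d it ran *Klf4*, *Klf5*, *Cebpb*, *Cebpa*, *Ebf1*, *Cebpd*, and the libraries of neighbours overlapped only for *Cebpb* and *Cebpa*. In PPARγ/+ cells on 5d it ran *Klf4*, *Cebpa*, *Klf5*, *Cebpd*, *Ebf1*, *Cebpb*, with overlaps between *Klf4* and *Cebpa*, *Klf5* and *Cebpd*, and *Cebpd* and *Ebf1*. In WT cells on 5d all 5 neighbouring pairs of that tier overlapped. The FPKM of *Cebpd* and *Klf5* rest on a gene length inferred from the values, 1180 and 1721 bases, where the annotation used here gives 3746 and 5201 bases, so their place in the order depends on it.

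The exons of 5 members overlap a gene on the other strand in the annotation: *Cebpa* by 51 bases, *Cebpb* by 312 bases, *Cebpd* by 562 bases, *Ebf2* by 424 bases and *Prdm16* by 109 bases. The library kit named does not mark strand, so the reads of such a stretch cannot be told apart between the genes.

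Muscle markers and several members varied among the 5d libraries, in opposite relations in the 2 cell types. *Myog*, the myogenin gene of differentiating muscle, was at 271, 215 and 90.0 FPKM in WT replicates 1, 2 and 3 and at 78.8, 85.9 and 90.3 FPKM in PPARγ/+ replicates. *Ckm*, muscle creatine kinase, was at 67.8, 39.2 and 12.04 FPKM and at 3.44, 4.86 and 5.71 FPKM. In WT cells the library with the lowest *Myog* and *Ckm* had the highest *Cebpa*, *Cebpb*, *Cebpd*, *Klf15* and *Ebf1* and the lowest *Klf4* and *Klf5*. In PPARγ/+ cells it was the library with the highest *Myog* and *Ckm*, replicate 3, that had the highest *Cebpa*, *Cebpb*, *Cebpd*, *Klf15* and *Ebf1*, and *Klf4* was highest there too. Of these 5, WT replicate 3 reached the PPARγ/+ range in *Cebpd*, *Klf15* and *Cebpb* but not in *Ebf1*, 6.85 against at least 11.1 FPKM, or *Cebpa*, 14.0 against at least 17.2 FPKM. The *Pparg* of WT replicate 3, 4.59 FPKM, was that of a WT library. PPARγ/+ replicate 3 also had the highest *Pparg* of its group, 92.7 against 40.1 and 44.1 FPKM. With all libraries none of the 8 muscle markers was called between the cell types on 5d. Without WT 5d replicate 3, the muscle markers *Ckm*, *Tnnt3* and *Des* were called lower in PPARγ/+ cells on that day. In that setting 796 of the 18023 genes tested were called, 288 of them higher. Without PPARγ/+ 5d replicate 3 no muscle marker was called on 5d. The part of the extent of muscle differentiation or of the *Pparg* level in the members' differences was not tested.

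**Figure D4:**
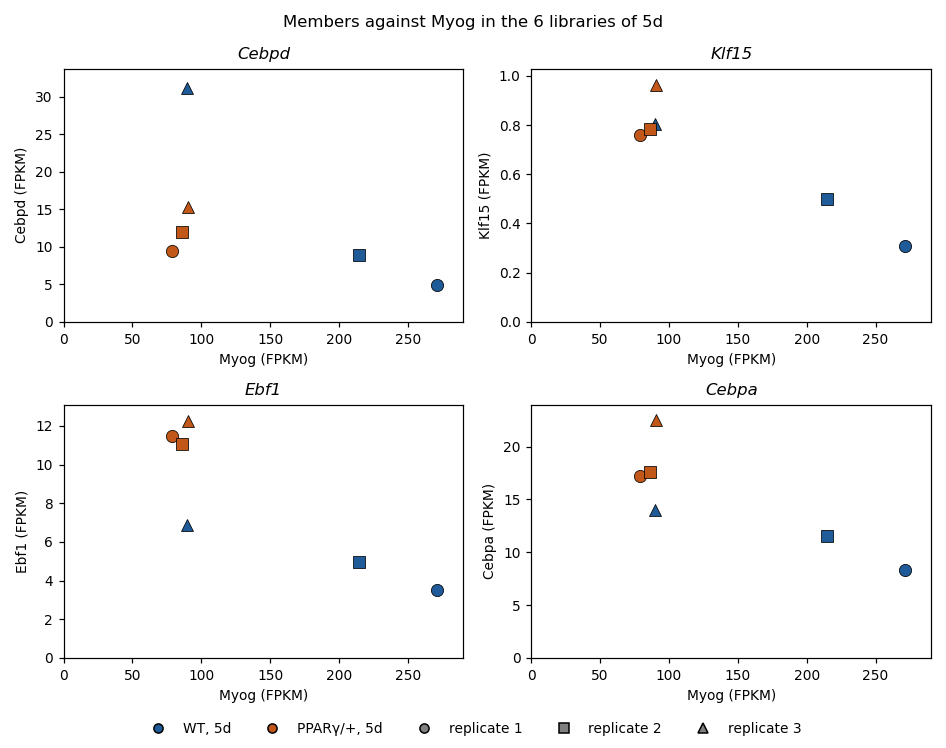
FPKM of Cebpd, Klf15, Ebf1 and Cebpa (y axes, from 0) against the FPKM of Myog (x axis, from 0) in the 6 libraries of 5d, with WT cells in blue, PPARγ/+ cells in orange and a symbol for each replicate. WT replicate 3, at 90.0 FPKM of Myog, lies beside the PPARγ/+ libraries on the x axis, and its Ebf1 and Cebpa are lower than theirs. It is not like them in all muscle markers, since its Ckm was higher than in each of them.

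The relatives of the members are few, and their calls are given as a description. Of all genes, 16.5% were called over days in WT cells and 15.2% in PPARγ/+ cells. Between the cell types 1.96% were called on 0d and 1.1% on 5d, and 0.76% in the interaction. Of the 3 tested C/EBP relatives (of 4 listed) none passed a call in any comparison, with medians between -0.18 and 0.20 on the log2 scale. Of the 12 tested other Krüppel-like factors (of 14) 1 passed, *Klf12*, which was lower in PPARγ/+ cells on 0d. The 3 PPARγ/+ libraries there had 0.0221, 0 and 0.0494 FPKM, 3 fragments in all, against 0.861, 0.513 and 0.163 FPKM in WT cells (adjusted p = 0.0170), and no fold is given at such counts. The Krüppel-like relatives had a median of -0.42 over days in WT cells and of -0.23 in PPARγ/+ cells, against -0.08 and -0.10 over all genes. Of the 3 tested relatives of EBF1, ZFP423 and PRDM16 (of 4) none passed with all libraries. Without WT 5d replicate 3, *Zfp521* was called lower in PPARγ/+ cells on 5d and *Ebf3* passed the interaction.

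Among 19 tested other activators of fat cell differentiation (of 20), *Pparg* included, 1 was called over days in WT cells and 2 in PPARγ/+ cells, all higher, beside the 8.94% and 9.11% of all genes called higher. *Bcl6*, a repressor of transcription with a role in fat precursors, rose in both cell types, from 3.504 ± 0.49 to 10.2 ± 0.38 FPKM in WT cells (SD, n = 3, adjusted p = 3.86e-04) and from 3.41 ± 0.52 to 8.97 ± 0.49 FPKM in PPARγ/+ cells (adjusted p = 2.02e-04). *Egr2*, an early activator of *Cebpb* also named Krox20, rose 6.27-fold in PPARγ/+ cells (adjusted p = 6.59e-05), from a level on 0d that was 2.30-fold lower than in WT cells (adjusted p = 0.0247). In WT cells *Egr2* went from 4.25, 4.75 and 5.16 FPKM to 6.55, 8.20 and 15.5 FPKM, which do not overlap, and its 1.98-fold difference (adjusted p = 0.0461) was just short of the call. Its interaction was 1.66 (adjusted p = 0.0798), and 1.93 (adjusted p = 0.0109) without replicate 3 of both 5d groups. *Nr1h3*, the LXRα gene, was 2.21-fold higher in PPARγ/+ cells on 0d (adjusted p = 0.0361). Of 17 tested repressors (of 20) *Twist2* fell 2.80-fold in WT cells (adjusted p = 0.00823) and *Hes1* was 2.08-fold lower in PPARγ/+ cells on 0d (adjusted p = 0.0114). Without WT 5d replicate 3, 3 repressors fell and 1 rose over days in WT cells. In that setting 3057 of the 18023 genes tested were called, 1642 of them higher. Over days the median log2 difference of the activators was 0.27 for WT and 0.32 for PPARγ/+ cells, and that of the repressors -0.27 and -0.19. Over all genes these medians were -0.08 and -0.10.

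Products of the mature fat cell differed between the cell types. Of 17 tested products (of 20) 8 rose over days in PPARγ/+ cells and none fell, beside 9.11% of all genes called higher. In WT cells 1 rose, beside 8.94%. Against WT cells 8 were higher on 5d and 3 on 0d, beside 0.571% on each day. *Adipoq*, *Plin1*, *Cfd*, *Fabp4* and *Cidec* were under 0.1 FPKM in every WT library and entered the test only through PPARγ/+ libraries. Between the cell types they could only be called higher in PPARγ/+ cells, as all but *Cfd* were on 5d. *Cfd* reached 0.1 FPKM only in PPARγ/+ libraries of 5d, so over days it could only rise. Without replicate 3 of both 5d groups 8 rose in PPARγ/+ cells, 8 were higher on 5d and 5 on 0d. Of all 18023 genes, 1623, 178 and 135 were called higher in these comparisons. In WT cells 2 rose and 1 fell, beside 3057 of all genes called, 1642 of them higher. The interaction then called *Adipoq* and *Plin4*, beside 249 of all genes. On 5d alone, leaving out WT replicate 3 gave 9 higher and 1 lower, beside 796 of all genes called, 288 of them higher. Leaving out PPARγ/+ replicate 3 gave 6 higher, beside 78 of all genes called, 42 of them higher. *Adipoq*, the adiponectin gene, was at 1.82 ± 0.71 FPKM in PPARγ/+ cells on 0d and at 8.03, 12.7 and 40.5 FPKM on 5d, while the 6 WT libraries held 3 fragments in all (adjusted p = 4.80e-05 on 5d). *Fabp4*, a fatty acid binding protein, was at 4.13, 4.86 and 10.3 FPKM in PPARγ/+ cells on 5d and at no more than 0.0481 FPKM in any WT library (adjusted p = 5.28e-06). *Adipoq*, *Plin1*, *Cfd*, *Fabp4* and *Cidec* had so few fragments in WT cells that no fold against WT cells is given for them. *Lpl*, lipoprotein lipase, was 7.59-fold higher on 5d (adjusted p = 0.00213). *Plin1*, which coats lipid droplets, was at 0.612, 1.02 and 2.73 FPKM in PPARγ/+ cells on 5d, against 0.0253, 0 and 0.00944 FPKM (adjusted p = 0.00271). *Cd36*, a fatty acid transporter that muscle also uses, rose in both cell types, from at most 0.0221 FPKM in WT cells on 0d to 2.20, 1.14 and 0.709 FPKM on 5d (adjusted p = 0.00126). *Cfd*, adipsin, rose over days in PPARγ/+ cells (adjusted p = 0.0453) to 0.313, 1.11 and 12.3 FPKM, the last in replicate 3. Without that library and WT 5d replicate 3 its log2 rise was 2.03 in place of 3.41 (adjusted p = 0.0244). *Adipoq*, *Plin1*, *Cfd*, *Fabp4* and *Cidec* also enter the median of the list. The list's median log2 difference on 5d was 1.64. It includes these 5 genes, which had at most 3 fragments in each WT library of 5d. Their log2 ratios to that floor were 3.12 to 7.74. As all 5 stand above the median either way, setting them to these ratios could not move it and is no check of it. Leptin, *Lep*, was at 0 in all 12 libraries.

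Of the brown fat products 7 of 12 were tested, and *Ebf2* and *Prdm16*, which direct them in brown fat, were at the floor. *Dio2*, *Cox8b* and *Cox7a1* rose in both cell types and *Lhx8* rose in PPARγ/+ cells. Of all genes 8.94% were called higher over days in WT cells and 9.11% in PPARγ/+ cells. On 5d none of the 7 was called between the cell types, beside 1.1% of all genes. Without WT 5d replicate 3 there were 2 called higher and 1 called lower in PPARγ/+ cells. In that setting 796 of the 18023 genes tested were called, 288 of them higher. *Dio2*, a deiodinase, rose 5.18-fold in WT cells (adjusted p = 0.00961) and 8.79-fold in PPARγ/+ cells (adjusted p = 4.32e-04). The first 3 are genes that muscle expresses too. *Ucp1*, the uncoupling protein that defines brown fat, had a value above 0 in 2 WT libraries, of 0.0314 and 0.0315 FPKM, and none in PPARγ/+ cells. Markers of other cells were low: the endothelial sum was at most 0.233 FPKM and the epithelial sum at most 0.309 FPKM in any library, while the macrophage sum lay between 2.96 and 8.07 FPKM and the osteoblast sum between 5.75 and 8.84 FPKM. Of these lists *Lyz2*, which rose over days in both cell types, and *Dmp1*, which rose in PPARγ/+ cells, passed a call with all libraries. Without WT 5d replicate 3, *Lyz2* was also called higher in PPARγ/+ cells on 0d and on 5d, and *Dmp1* on 5d.

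The genes most like the called members were found by the root mean square difference of centred log2(FPKM + 0.1) over the 12 libraries, among genes with a mean of at least 1 FPKM. For *Cebpd*, which spanned 3.62 on that scale, they were *Zfp36*, *Btg2* and *Junb*, with differences of 0.304, 0.340 and 0.356. For *Klf15* they were *Ypel3*, *Smpdl3a* and *Gm42743*, with 0.280, 0.301 and 0.319 over a span of 3.02. For *Ebf1* they were *Gatb*, *Gstt1* and *Irx2*, with 0.187, 0.189 and 0.190 over a span of 1.77.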

How the data were processed

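RNA was extracted with Trizol and libraries were made with the TruSeq RNA kit, which does not mark strand, for the 12 libraries described above. According to the paper's methods, the authors used Trim Galore to trim the reads, STAR for alignment to the mouse genome GRCm38 and HTSeq for counts per Ensembl gene, from which FPKM were derived, and the replicates are called biological. The submitters' processing notes name STAR and mm9. The deposited FPKM are the values used here, and a second deposited table by the authors holds them as log2(FPKM + 1) and was used only for a check.

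log2(FPKM + 0.1) of the 18023 genes with at least 0.1 FPKM in at least 3 libraries was tested with limma 3.58.1 under R 4.3.3, with its moderated statistics and a mean-variance trend, and p-values were adjusted by Benjamini-Hochberg over all of them. The days were compared on the 6 libraries of a cell type, with the thresholds of the study, and the cell types and the interaction over all 12. The p-values measure the spread between these libraries. The fit was tested on simulated data.

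Fragments were recovered as FPKM times gene length times mapped fragments fitted from the values, which gave whole numbers within 0.02 for 21316 genes, and the floor is 3 fragments a library. Positions are those of GENCODE M21 on GRCm38. The alternatives were other pseudocounts, filters, scaling, call rules and spreads, a replicate block, leaving out each library, and, chosen after seeing the data, limma's voom on the fragments and leaving out replicate 3 of both 5d groups.

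The members, the gene lists and the marker lists were chosen with earlier results of these data known. Named were all members, *Pparg*, the muscle markers *Myod1*, *Myog*, *Myh3* and *Ckm* where they moved with members, per list and comparison up to 4 called genes of largest change (higher group at 1 FPKM or more), and the 3 genes most like each called member. *Klf12*, *Ebf3*, *Zfp521*, *Ucp1*, *Lep*, *Tnnt3* and *Des* were named after their values were seen. Software was Python 3.11.15 with pandas 2.3.3, numpy 2.4.6 and, for the plots, matplotlib 3.10.9.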

Additional observations from a re-analysis of the deposited data

Results flagged for a closer look

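*Myf5*, a marker of muscle precursors, was the only gene among the members and the lists to pass the interaction of cell type and day, with a coefficient of 2.20 on the log2 scale (limma, adjusted p = 0.00844) with all libraries, and 1.94 (adjusted p = 0.0124) without replicate 3 of both 5d groups. It was at 11.3, 13.2 and 11.6 FPKM in WT cells on 0d and at 5.96, 3.53 and 3.79 FPKM on 5d, and in PPARγ/+ cells at 3.66, 4.25 and 3.96 FPKM on 0d and at 5.58, 6.27 and 8.47 FPKM on 5d. It fell 2.74-fold over days in WT cells (adjusted p = 0.00268), and on 0d it was 2.99-fold lower in PPARγ/+ than in WT cells (adjusted p = 0.00165). Its day difference in PPARγ/+ cells, 0.74 on the log2 scale (adjusted p = 0.00791), was short of 2-fold.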

How the results depend on the processing

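The members called over days in PPARγ/+ cells numbered 2 to 4 over the alternatives run. There were 2 (*Cebpd* and *Ebf1*) with a pseudocount of 1 and with a filter at 1 FPKM, which leaves *Klf15* out of the test, and 4 with a pseudocount of 0.01 or voom (*Zfp423* added) and with median-ratio scaling (*Cebpa* added). On 0d limma called 0 members under each alternative run. In WT cells 2 were called over days, but 1 with a pseudocount of 1 (*Cebpd*), with a filter at 1 FPKM (*Cebpd*) or with an adjusted p (*Klf15*), and 1 to 2 when a library was left out, with *Klf15* alone without WT 0d replicate 1 or 3. On 5d the 1 call became 0 with the 6 libraries of that day alone, 2 with voom on fragments (*Zfp423* and *Ebf1*), 2 without replicate 3 of both 5d groups (*Klf5* and *Ebf1*), and 0 to 2 with a library left out, as given for each gene. The interaction called 0 members. At an unadjusted p it gave 3 (*Ebf1*, *Zfp423* and *Klf4*), beside 2164 of the 18023 genes tested. It called 1 without both of those libraries (*Ebf1*, 1.13, adjusted p = 0.0400) and 0 to 1 with a library left out. The cause was not tested where none is named. The replicate numbers did not pair the libraries (correlations of deviations of -0.0678 to 0.0834 over 18 same-number pairs), and a replicate block left the member counts at 2, 3, 0, 1 and 0 and the interaction at 61 in place of 137 genes, with an adjusted p of 0.0677 for *Klf5* on 5d.

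Directions turned under median-ratio scaling for *Cebpb* (0.085) and *Klf4* (0.046) over days in PPARγ/+ cells and for *Cebpb* (-0.020) and *Zfp423* (-0.0033) on 0d, all far from the threshold. This scaling moved the median of all genes from -0.08 to 0.02 in WT cells and from -0.10 to 0.02 in PPARγ/+ cells over days and put *Cebpa* past 2-fold in PPARγ/+ cells (1.07). The interaction of *Klf15* was 0.14 with a pseudocount of 1 and 0.18 without both replicates 3 of 5d, where *Klf4* on 5d was -0.24. With a library left out, the log2 differences of *Cebpb* ranged from -0.48 to 0.082 over days in WT cells, from -0.17 to 0.14 over days in PPARγ/+ cells and on 0d, from -0.11 to 0.45 on 5d and from -0.13 to 0.44 in the interaction. Those of *Cebpd* ranged from -0.47 to 0.84 on 5d and from -1.20 to 0.11 in the interaction, of *Klf15* from -0.36 to 0.33 in the interaction, of *Klf4* from -0.12 to 0.26 on 5d, of *Klf5* from -0.068 to 0.084 over days in PPARγ/+ cells, and of *Zfp423* from -0.26 to 0.089 (WT days) and from -0.11 to 0.12 (0d).

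Counts over all genes moved by over 1.5 times in several settings. With a pseudocount of 1 they were 1441 in place of 2970 (WT days), 1241 in place of 2735 (PPARγ/+ days), 120 in place of 353 (0d) and 95 in place of 199 (5d). With a filter at 1 FPKM they were 1806 over PPARγ/+ days and 93 on 5d, but of 12290 genes in place of 18023. An unadjusted p gave 699 on 0d, 720 on 5d and 2164 in the interaction, and the libraries of 5d alone gave 28. Voom gave 80 in the interaction, but of 13432 genes. Counts with that filter or with voom are thus not of the same genes as the main ones. Leaving out both replicates 3 of 5d gave 573 on 5d and 249 in the interaction. A library left out gave 180 to 491 on 0d, 78 to 796 on 5d and 42 to 527 in the interaction, with the highest counts on 5d and in the interaction without WT 5d replicate 3. Depth limits *Klf15*, *Zfp423*, *Ebf2* and *Prdm16*, which rest on few fragments.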
